A study of Mus musculus with 4 samples.

Results

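Erg and 9 other genes of the endothelium were followed in mouse cell aggregates in which a motor neuron program is switched on. They are the ETS factors Erg and Fli1, the receptors Kdr, Flt1, Tek and Tie1, and the surface and junction genes Pecam1, Esam, Cldn5 and Emcn, 10 of the 21822 gene units counted. Erg was chosen by its counts in these same libraries, near zero without doxycycline (Dox) and higher with it, and the others were added as known endothelial genes to see whether Erg rose by itself. The difference of Erg between the groups is therefore a description here, given with no test. The other 9 were picked for their function, with earlier results of these data known.

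The cells are iMN-ESCs, 1 mouse embryonic stem cell line (background strain C57BL/6) in which Dox induces a fusion of the LIM-homeodomain factors Isl1 and Lhx3. All libraries came from aggregates held for 2 days in medium with LIF, then for 2 days with 0.5 µM all-trans retinoic acid, and for a further 2 to 3 days with retinoic acid and either no Dox (2 libraries) or 2 µg/mL Dox (2 libraries). The replicates are biological ones, per the series' design text. Every group carries the transgene, so Dox itself and the fusion cannot be told apart. Part counts summed to between 24020832 and 53903936 per library. As a check of the labels, Lhx3 measured 0.404 and 0.286 CPM (counts per 1000000) in the controls and 125 and 108 CPM under Dox, and Isl1 went from 3.08 and 5.84 to 104 and 82.4 CPM. Both followed the labels. The motor neuron genes Slc18a3, Chat, Lhx4 and Mnx1 were called higher with Dox, and Isl2 was not. RNA came from whole aggregates, in which fewer cells of a type and less RNA per cell cannot be told apart.

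In blood vessels Erg and its close relative Fli1 are transcription factors with an ETS domain that binds DNA around a GGAA core and keeps junction and receptor genes active. Endothelial cells sense VEGF through the tyrosine kinase receptors Kdr (VEGFR2) and Flt1 (VEGFR1), and angiopoietins through Tek (Tie2), with Tie1 as its partner. Pecam1, Esam, Cldn5 and the VE-cadherin Cdh5 hold neighbouring endothelial cells together, and Emcn is a sialomucin of capillaries and veins. Erg is also known from developing cartilage and early blood cells.

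Erg has 3 annotated starts with a promoter window in the reference table (RefSeq, GRCm38.p6, chromosome 16, minus strand). The 250 bases before each are shown because Lhx3 and Isl1 belong to the homeodomain factors, many of which bind a TAATTA core. Capitals mark TAATTA, which reads the same on both strands. Start 1 covers chr16:95586594-95586843, start 2 chr16:95530366-95530615 and start 3 chr16:95459349-95459598.
Erg start 1: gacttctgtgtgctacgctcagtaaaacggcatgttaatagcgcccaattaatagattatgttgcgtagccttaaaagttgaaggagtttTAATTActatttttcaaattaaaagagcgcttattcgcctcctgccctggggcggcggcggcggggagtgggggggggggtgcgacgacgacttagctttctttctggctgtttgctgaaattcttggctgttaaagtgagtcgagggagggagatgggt
Erg start 2: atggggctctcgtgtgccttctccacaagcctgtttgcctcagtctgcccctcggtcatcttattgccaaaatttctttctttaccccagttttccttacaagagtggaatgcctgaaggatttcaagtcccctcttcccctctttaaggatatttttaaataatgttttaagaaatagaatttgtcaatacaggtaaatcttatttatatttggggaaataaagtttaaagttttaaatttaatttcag
Erg start 3: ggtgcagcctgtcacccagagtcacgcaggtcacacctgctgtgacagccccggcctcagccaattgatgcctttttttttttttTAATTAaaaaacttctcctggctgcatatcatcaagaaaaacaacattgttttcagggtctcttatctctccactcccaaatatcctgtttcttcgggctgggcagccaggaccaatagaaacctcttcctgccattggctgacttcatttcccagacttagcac

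The windows of starts 1 and 3 each hold TAATTA once, with its first base 160 and 165 bases before the start, and the window of start 2 does not hold these letters. Of all 32851 windows of this length 4.84% hold it. Promoter windows were matched for 7 of the 10 genes (Erg, Kdr, Flt1, Tek, Tie1, Cldn5 and Emcn, 9 windows in all, and none for Fli1, Pecam1 and Esam), and TAATTA was in no window but these 2 of Erg. The ETS sequence CCGGAA, searched on both strands, was in 1 of the 9 windows, that of Kdr, and in 12.0% of all windows. A match describes the sequence and shows no binding.

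Erg measured 0.0734 and 0.163 CPM in the controls and 1.90 and 2.67 CPM under Dox. These values rest on 2 and 4 counts without Dox and on 71 and 146 counts with it. Both Dox libraries lay far above both others, yet Erg remained a low transcript in comparison with the motor neuron gene Mnx1 (48.5 and 43.8 CPM with Dox). The ratio of summed counts was 20.3 and the fitted log2 difference was 4.26, both as descriptions of the values that chose Erg. The difference was 3.80 with no Dox replicate 1 dropped and 4.91 with no Dox replicate 2 dropped. Erg passed the filter on low counts only through its Dox libraries.

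**Figure D1:**
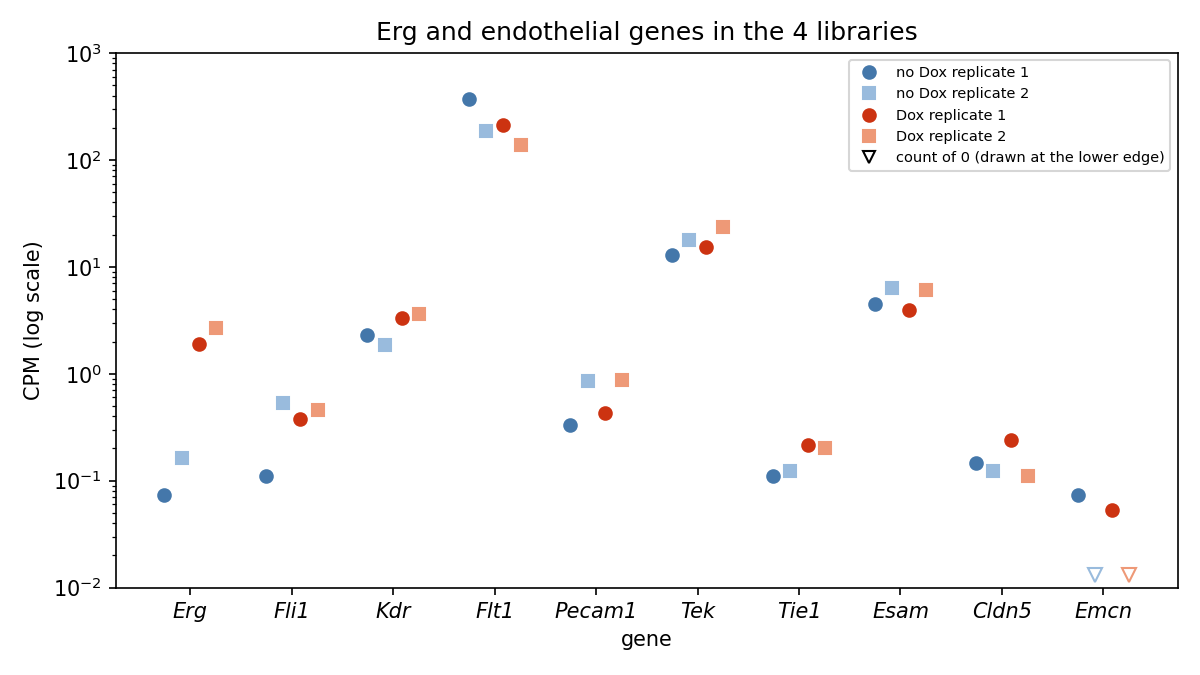
Level of each of the 10 genes in the 4 libraries, in CPM on a log axis (blue: no Dox, red: Dox; circles: replicate 1, squares: replicate 2; open triangles at the lower edge: a count of 0). Erg goes from 0.0734 and 0.163 to 1.90 and 2.67 CPM, while Flt1 is highest in no Dox replicate 1 and Emcn has counts in the replicate 1 libraries only.

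With Dox, counts fell on all 11 exons of the counted Erg transcript in both libraries. Without Dox, replicate 1 had counts in the last exon only, and replicate 2 in the last exon and 1 count in exon 10. Over exons 3 to 10 Erg stood at 1.22 and 1.62 CPM per kb with Dox, against 0 and 0.0453 CPM per kb without. The last exon, which is 2158 bases long in the reference, was less covered per length, at 0.298 and 0.509 CPM per kb with Dox. It held 33.8% and 41.1% of the Erg counts of the Dox libraries. Alone, this largest part gave a smaller log2 difference of 3.15.

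The first exons bear on which start was in use. Exons 1 and 2 of the counted transcript belong to annotated transcripts from starts 1 and 2 and not to one from start 3, while exon 3 is common to all 3 starts. Exon 1 had 2 and 3 counts and exon 2 had 4 and 3 counts with Dox, and neither had any without Dox. The counted transcript is the one annotated from start 2, whose window lacks TAATTA. Exons 1 to 3 are shared with start 1, and the parts counted do not separate these 2 starts. In the transcript from start 1, exon 1 of the counted transcript is an inner exon, and the bases just before it are intron. Whether start 2 is in use, and so whether its window is a promoter here, was not tested. Exon 3 had 11 and 13 counts with Dox, and at this depth no share was estimated for start 3.

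**Figure D2:**
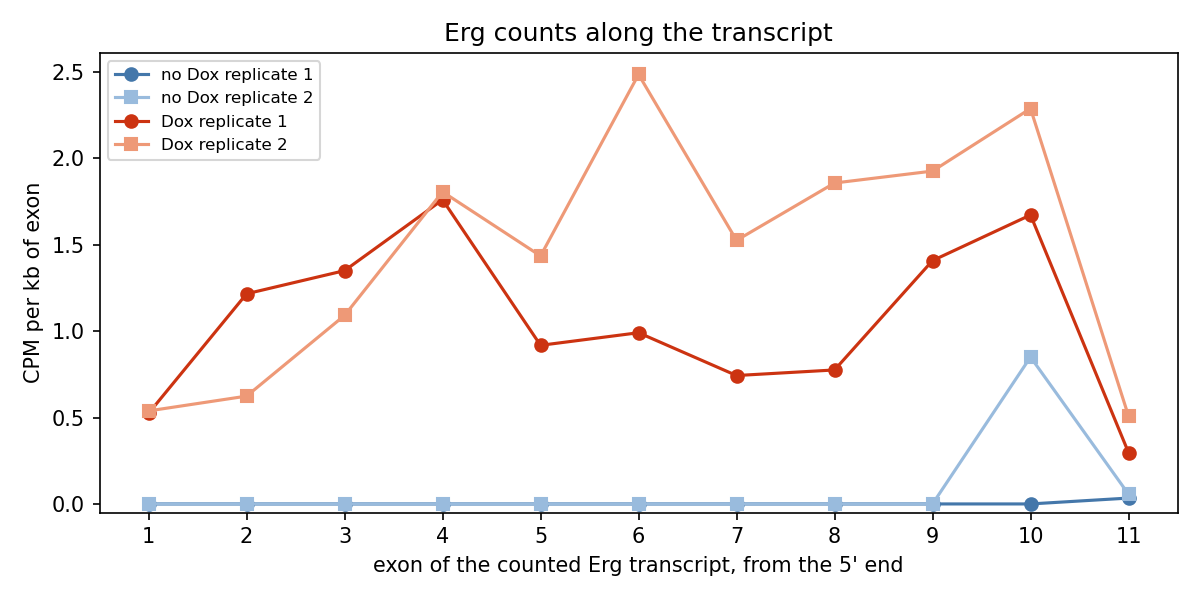
Erg counts per exon in CPM per kb of exon (vertical axis) against the exon number from the 5′ end (horizontal axis), 1 line per library. Both Dox lines are above 0 at all 11 exons and drop to 0.298 and 0.509 at the last. The single raised point without Dox, at exon 10, is 1 count.

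Fli1, the ETS factor closest to Erg that endothelial cells also keep on, was not called. Fli1 measured 0.110 and 0.530 CPM in the controls and 0.375 and 0.458 CPM under Dox. Both Dox values lay between the controls. The log2 fold change was 0.42 (95% interval -1.26 to 2.10, adjusted p = 0.938 by edgeR's quasi-likelihood test with Benjamini-Hochberg adjustment, which gives each adjusted p here unless another tool is named), which moved to -0.33 when no Dox replicate 1 was dropped and to 1.90 when no Dox replicate 2 was. Per length, Fli1 had 0.113 and 0.138 CPM per kb with Dox and Erg had 0.584 and 0.822.

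Of the 25 other ETS family genes 18 were tested. None was called by edgeR or limma-voom, and 4 were higher and 0 lower at an unadjusted p under 0.05. Over all 14283 genes edgeR called 1.28% (1.23% higher and 0.056% lower), and limma-voom called 1.18% higher and 0.084% lower. Before adjustment, 6.26% of all genes rose and 4.02% fell with an edgeR p below 0.05. These 18 had a median log2 fold change of 0.04, against -0.01 over all genes. DESeq2 called 2 of the 18 higher, beside 2.82% of all genes higher and 0.812% lower. With no filter edgeR also called 2, beside 1.67% of all genes higher and 0.261% lower. Etv5 and Etv4, effectors of FGF signalling that were singled out after their values were seen, came next. Etv5 measured 8.66 and 9.51 CPM in the controls and 17.7 and 16.8 CPM under Dox (log2 change 0.93, adjusted p = 0.0662), and Etv4 measured 4.48 and 6.24 against 11.2 and 12.9 CPM (1.17, adjusted p = 0.0981). DESeq2 called both (adjusted p = 0.00089 and 0.000871), and edgeR called both without no Dox replicate 2 (0.0404 and 0.0181) and Etv4 without Dox replicate 1 (0.0303). Fev, the third member of the Erg subgroup, had 16 counts in all 4 libraries together and was not tested. Spi1, the ETS factor of myeloid cells, had 1.

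The genes beside Erg on chromosome 16 were read next. None of the 4 tested neighbours passed in edgeR, DESeq2 or limma-voom, and edgeR called 1.28% of all genes. None of the 4 had an unadjusted p under 0.05, which 10.3% of all genes had. The median log2 fold change of the 4 was -0.03. Ets2, the next coding gene on one side, changed by log2 0.07 (SE 0.13, adjusted p = 0.954). Brwd1 and Dyrk1a, farther out on either side, had 0.01 and -0.08. Kcnj15, the next coding gene on the other side, had 1 and 2 counts without Dox and 2 and 9 with it.

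No VEGF receptor was called by edgeR without a replicate term. Kdr, the main signalling receptor, measured 2.31 and 1.88 CPM in the controls and 3.34 and 3.66 CPM under Dox. Both Dox libraries were above both controls, as in 18.9% of all genes tested. The log2 fold change of 0.74 (SE 0.26, 95% interval 0.11 to 1.37 before adjustment) did not pass the test (adjusted p = 0.37). Flt4, the receptor of VEGF-C, had a like log2 difference of 0.72 (adjusted p = 0.387).

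Flt1, a high-affinity VEGF receptor with weak kinase activity, was the most abundant of the 10 genes in every library. It measured 368 and 185 CPM in the controls and 212 and 138 CPM under Dox. The groups overlapped, with no Dox replicate 1 alone at the top. The log2 fold change was -0.66 (SE 0.35, adjusted p = 0.644). Without that library it was -0.07, with no Dox replicate 2 alone set against both Dox replicates. At each replicate number Flt1 was lower with Dox, and edgeR with a replicate block gave -0.61 (adjusted p = 0.000152). The labels do not say what same-numbered libraries share. Reads of Flt1 were not spread evenly along the gene. The reference has a short coding transcript of Flt1 that reaches the first 13 of the 30 exons of the full transcript, the form known for a soluble receptor that lacks the kinase.

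Exon 13 of Flt1 stood at 128 and 69.5 CPM per kb without Dox and at 63.4 and 44.1 CPM per kb with Dox. Exon 14 stood at 42.2 and 15.5 CPM per kb without Dox and at 23.1 and 14.8 CPM per kb with Dox. The fall between these adjacent exons was 3.04-fold and 4.47-fold without Dox and 2.74-fold and 2.98-fold with it. Summed over exons, the first 13 had 1.68 to 2.10 times the CPM per kb of exons 14 to 29 in the 4 libraries (17651 and 7509 counts in all). In Kdr, which also has 30 exons, the same ranges gave ratios of 0.388 to 1.23, on 145 and 179 counts. The summed Flt1 ratios were 2.102 and 1.965 without Dox and 1.933 and 1.68 with it. The gap between the groups was smaller than the spread within either group. This difference was not tested.

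**Figure D3:**
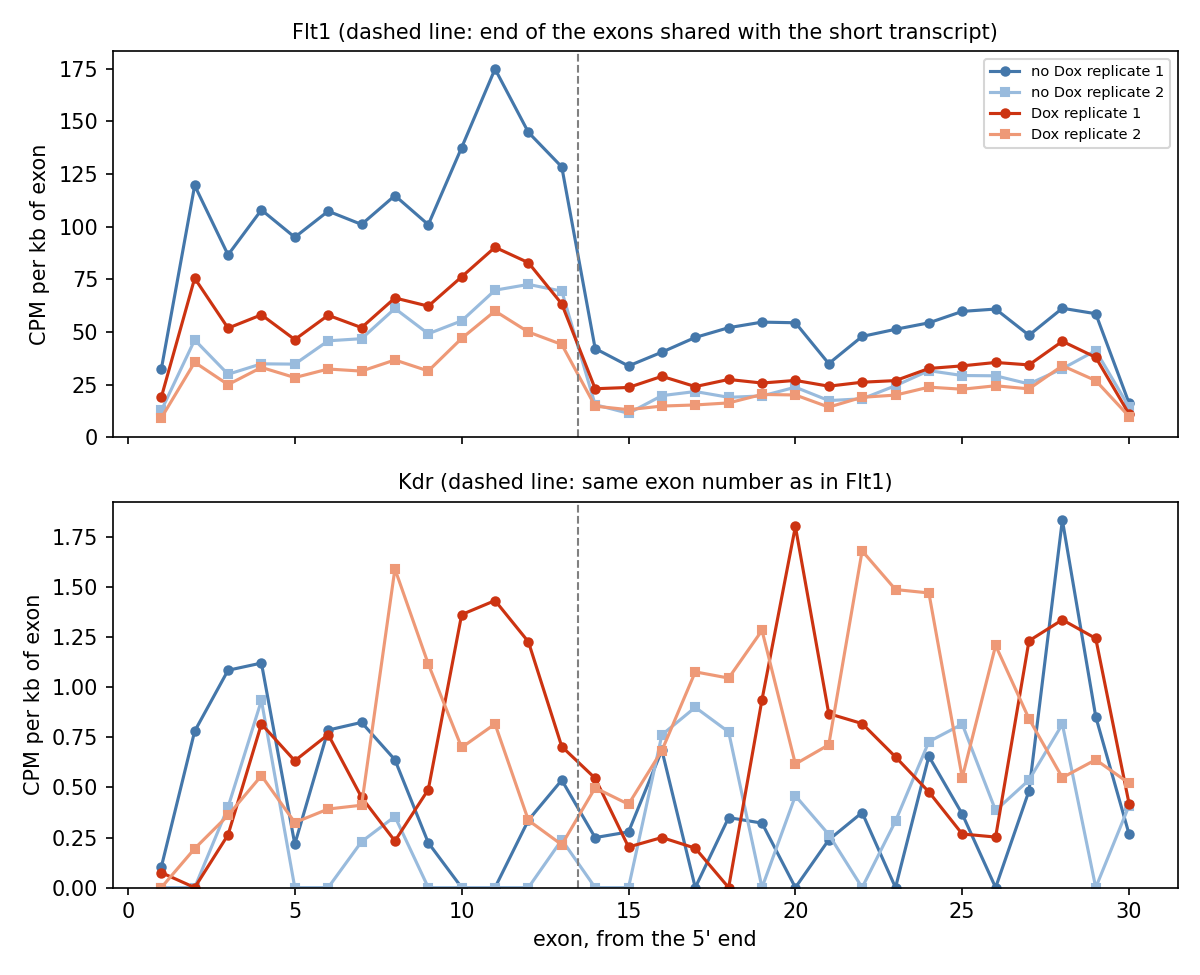
CPM per kb of each exon (vertical axis) against exon number from the 5′ end (horizontal axis) for Flt1 above and Kdr below, 1 line per library. In Flt1 all 4 lines drop at the dashed line after exon 13, from 44.1 to 128 down to 14.8 to 42.2 CPM per kb, and the few counts of Kdr give jagged lines with no step in common.

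Of 11 ligands, co-receptors and the receptor Flt4, 3 rose and none fell in edgeR, and 8 were not called. The list was drawn up with earlier results of these data known, so its counts are a description. Over all genes 1.23% were called higher and 0.056% lower. At an unadjusted p under 0.05, 5 of the 11 were higher and 1 lower, against 6.26% and 4.02% of all genes. The median log2 fold change was 0.65. Angpt2, an angiopoietin ligand of Tek, rose, with 1.21 and 1.10 CPM in the controls and 12.5 and 11.6 CPM under Dox (log2 change 3.37 ± 0.22 SE, adjusted p = 0.0026). Angpt1, the activating ligand of Tek, rose, with 3.85 and 5.22 CPM in the controls and 13.9 and 17.1 CPM under Dox (log2 change 1.78 ± 0.23 SE, adjusted p = 0.028). Nrp1, a co-receptor for VEGF and receptor for semaphorins, rose by log2 3.79, from 27.7 and 29.1 to 449 and 339 CPM (SE 0.18, adjusted p = 0.000967). Vegfa, the main ligand of Kdr, was abundant in all libraries at 207, 199, 209 and 233 CPM (log2 change 0.12, adjusted p = 0.85). Pgf, a ligand of Flt1, measured 1.65 and 2.65 CPM in the controls and 6.18 and 8.88 CPM under Dox (1.81, adjusted p = 0.0752). Vegfa and Pgf were singled out after their values were seen, and DESeq2 called Pgf higher (adjusted p = 5.91e-05), as did edgeR without no Dox replicate 2 (0.0141), Dox replicate 1 (0.000647) or Dox replicate 2 (0.0246).

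Tek itself, whose ligands rose, measured 13.0 and 17.7 CPM in the controls and 15.5 and 23.4 CPM under Dox. The groups overlapped, and the log2 fold change was 0.34 (95% interval -0.28 to 0.97, adjusted p = 0.781). Tie1 had 3 and 3 counts without Dox and 8 and 11 with it, or 0.110, 0.122, 0.214 and 0.201 CPM. It was too low to be tested, and the ratio of its summed counts was 1.78 (exact 95% counting interval 0.684 to 5.45). Per length, Tek averaged 3.74 CPM per kb over the 4 libraries and its partner 0.0396.

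The junction and surface genes stayed low or overlapped between the groups. Pecam1 measured 0.330 and 0.857 CPM in the controls and 0.428 and 0.879 CPM under Dox (log2 change 0.19, 95% interval -1.27 to 1.64, adjusted p = 0.979). Esam, an adhesion molecule of endothelial junctions, stood at 4.51 and 6.41 against 3.96 and 6.06 CPM (-0.12, 95% interval -0.86 to 0.63, adjusted p = 0.971). In both genes the 2 replicates of a group differed by more than the groups did. Cldn5, the main claudin of brain endothelium, had 4, 3, 9 and 6 counts, a ratio of 1.21 with Dox (exact 95% counting interval 0.463 to 3.49). Emcn had 2 counts in each replicate 1 library and 0 in each replicate 2 library, which allows up to 0.122 CPM without Dox and 0.0549 CPM with it.

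Of the 9 genes other than Erg, 6 passed the filter. None of these passed in edgeR, DESeq2 or limma-voom without a replicate term, and edgeR called 1.28% of all genes. In edgeR with a replicate block, Kdr was called higher (adjusted p = 0.0407) and Flt1 lower (adjusted p = 0.000152). Without the block, Kdr alone had an unadjusted p under 0.05, which 10.3% of all genes had, 6.26% on the higher and 4.02% on the lower side. The median log2 fold change of these 6 was 0.26. Kdr was the 1 gene of the 6 whose groups did not overlap, against 38.8% of all genes (19.9% lower with Dox). The upper 95% bounds of the 6 reached at most 2.10, in Fli1.

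Per length over the 4 libraries the order was Flt1 (20.1 to 53.4 CPM per kb), Tek (2.80 to 5.02), Esam (2.12 to 3.44), Kdr (0.317 to 0.618), Erg (0.0226 to 0.822), Pecam1 (0.100 to 0.267), Fli1 (0.0332 to 0.160), Cldn5 (0.0776 to 0.170), Tie1 (0.0269 to 0.0523) and Emcn (0 to 0.0284). The range of Flt1 lay above that of Tek, that of Esam above that of Kdr and that of Cldn5 above that of Tie1. All other neighbours in this order overlapped. With Dox, Erg had 0.584 and 0.822 CPM per kb and Kdr 0.564 and 0.618.

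Of 21 further endothelial genes 14 were tested, and none was called by edgeR or limma-voom. With 1.28% of all genes called by edgeR, 0 of 14 does not set the list apart. DESeq2 called 1 higher, Mmrn2, beside 2.82% of all genes. Mmrn2 was also the 1 gene of the 14 with an unadjusted edgeR p under 0.05, against 10.3% of all genes (6.26% higher). The median log2 fold change of the 14 was 0.01. Mmrn2, a matrix protein of vessels singled out after its values were seen, measured 1.72 and 2.00 CPM in the controls and 5.06 and 5.03 CPM under Dox (log2 change 1.44 ± 0.24 SE, adjusted p = 0.0591; 0.00164 in DESeq2). Cdh5, singled out as the defining junction gene, stood at 10.9 and 24.5 against 12.0 and 24.3 CPM (0.05, adjusted p = 0.997), and its log2 change ran from -0.54 without Dox replicate 2 to 0.74 without no Dox replicate 2. Icam2 had 0 counts in all 4 libraries. The early vessel factors Etv2 and Sox18, the apelin receptor Aplnr, and Robo4, Clec14a and Myct1 were all too low to be tested.

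A few endothelial genes were abundant in every library. Sox7 and Sox17, SOX factors of both vessels and extraembryonic endoderm, stood at 196 to 241 and at 86.0 to 109 CPM (log2 fold changes -0.14 and -0.23, adjusted p = 0.837 and 0.657). Egfl7, a secreted vessel protein, stood at 30.4 to 41.9 CPM (-0.10, adjusted p = 0.947). The summed level of the 21 genes was 388 and 441 CPM in the controls and 350 and 411 CPM under Dox. Without Sox7 and Sox17 it was 63.0 and 89.9 against 67.9 and 92.4 CPM. Whether the cells with Flt1 and Tek are the cells with Sox7 and Sox17 was not tested.

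**Figure D4:**
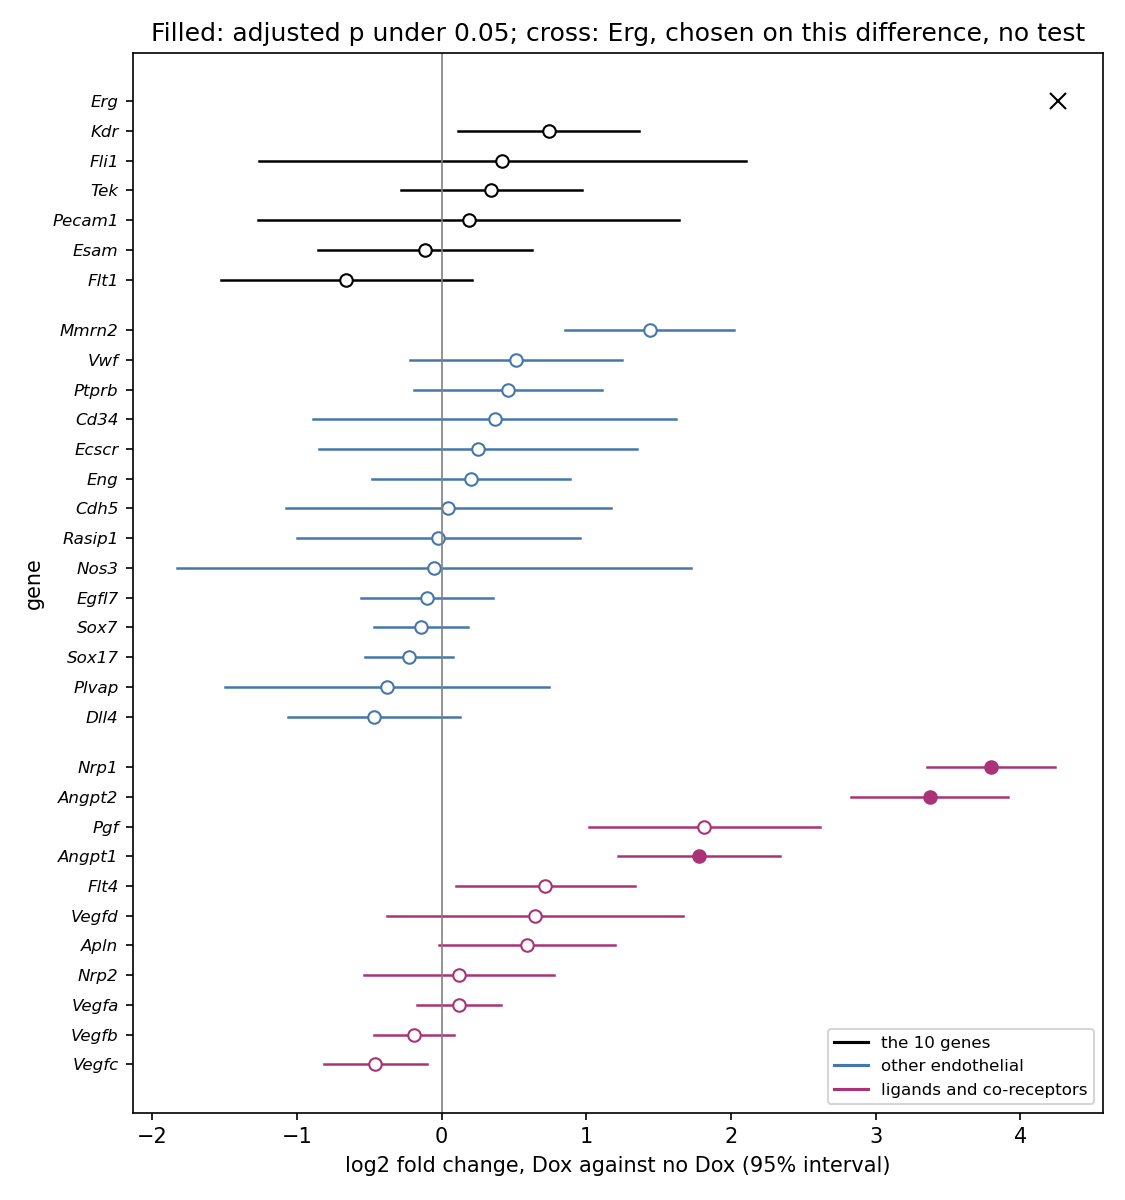
Log2 fold change of Dox against no Dox (horizontal axis; points with 95% intervals, before adjustment) for the tested genes among the 10 (Erg as a cross with no interval), the further endothelial genes, and the ligands and co-receptors. Filled points have an adjusted p under 0.05 and are Nrp1, Angpt2 and Angpt1, and Erg carries no test because it was chosen on this difference. The intervals of all further endothelial genes other than Mmrn2 include 0.

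Several of these genes differed between replicate numbers in the same direction in both groups. Cdh5 read 10.9 and 12.0 CPM in the replicate 1 libraries and 24.5 and 24.3 CPM in the replicate 2 libraries. Replicate 2 was above replicate 1 in both groups for 5 of the 7 tested genes (Erg, Fli1, Pecam1, Tek and Esam) and for 9 of 14 further endothelial genes, against 37.8% of all genes. Flt1, Vwf and Dll4, a Notch ligand of arterial cells, were the reverse, 3 of the 21, against 35.6% of all genes. The labels give only a number for each replicate, and what the same-numbered libraries share was not tested.

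**Figure D5:**
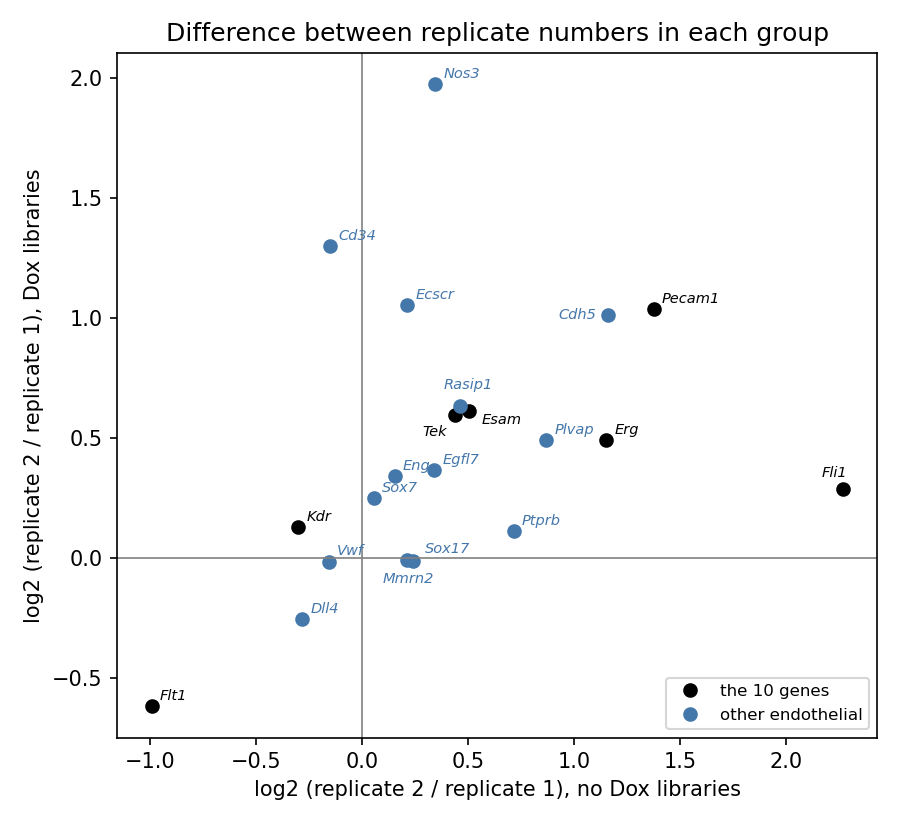
Log2 ratio of replicate 2 to replicate 1 in the no Dox libraries (horizontal axis) and in the Dox libraries (vertical axis) for the tested genes among the 10 (black) and the further endothelial genes (blue). Of the 21 points 14 lie at the upper right, where replicate 2 is higher in both groups, and Flt1 lies apart at the lower left.

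Other cell types that could carry Erg or surround vessels were read from lists drawn up with earlier results of these data known. None of 8 tested mural cell genes passed edgeR, DESeq2 or limma-voom, and edgeR called 1.28% of all genes. At an unadjusted p under 0.05, 1 was higher (Des, log2 change 0.73) and 1 lower (Acta2, -1.39), against 6.26% and 4.02% of all genes. Both Dox libraries lay above both controls in 5 of the 8 and below them in 1, against 18.9% and 19.9% of all genes. The median log2 fold change of the mural genes was 0.18. Notch3, Anpep and Tagln, the most abundant, gave log2 changes of 0.09, 0.18 and -0.52 (Tagln -1.02 without no Dox replicate 2). The summed level of the mural list was 271 and 181 CPM in the controls and 277 and 203 CPM under Dox. Notch3 alone made up 219 and 137 CPM of it in the controls and 227 and 153 CPM under Dox, so the sum mainly follows Notch3. Of 13 blood genes 4 were tested, and none was called by these tools. None of the 4 had an unadjusted p under 0.05, which 10.3% of all genes had. The globins Hbb-y and Hba-x, the leukocyte gene Ptprc and the platelet gene Pf4 were at 0 in all libraries. Runx1, Itga2b and Csf1r gave log2 changes of 0.06, 0.29 and -0.07. The blood list summed to between 23.2 and 27.9 CPM, of which Runx1 alone made up 17.2 to 22.5 CPM.

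Of 8 cartilage genes 6 were tested and 1 rose, with 2 higher and 0 lower at an unadjusted p under 0.05 and a median log2 fold change of 0.31. Sox9, a factor of cartilage and also of neural progenitors, measured 26.5 and 21.7 CPM in the controls and 46.8 and 54.8 CPM under Dox (log2 change 1.07 ± 0.16 SE, adjusted p = 0.0449), which was not called where a mean of 5 CPM was asked (adjusted p = 0.0586). The cartilage genes Acan, Matn1, Comp, Prg4 and Gdf5 stayed under 1 CPM in every library. Col9a1, a cartilage collagen, measured 0.184 and 0.490 CPM in the controls and 0.776 and 1.30 CPM under Dox (log2 change 1.65 ± 0.56 SE, adjusted p = 0.358). Both Dox libraries were above both controls, as in 18.9% of all genes tested. Col2a1, the main cartilage collagen, stood at 233 and 185 against 284 and 219 CPM. The list summed to 261 and 209 CPM in the controls and 334 and 277 CPM under Dox. Its part in the rise of Erg was not tested.

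The 5 genes with the pattern nearest to Erg over the 4 libraries were Sncg, Slc35d3, Gdnf, Uts2b and Lmo1, with a root-mean-square difference of 0.030 to 0.099 from Erg in centred log2(CPM + 0.5). Slc35d3, a transporter-like membrane protein, measured 0.257 and 0.367 CPM in the controls and 2.46 and 3.42 CPM under Dox. Uts2b, a peptide precursor, stood at 0.0367 and 0.0816 against 1.42 and 2.45 CPM. Sncg, a synuclein of peripheral and motor neurons, stood at 11.0 and 13.1 against 50.5 and 65.1 CPM. Gdnf, a neurotrophic factor, stood at 2.13 and 2.77 against 12.3 and 15.0 CPM. Lmo1, a LIM-only cofactor, stood at 3.49 and 3.59 against 16.9 and 19.3 CPM. Sncg, Gdnf and Lmo1 were not near zero without Dox. Their log2 changes of 2.26, 2.48 and 2.35 were below the 4.26 of Erg. The 0.5 added to CPM narrows differences at low levels. None of the 5 was on the endothelial lists. They were picked for likeness in these same 4 libraries, so their likeness is a description.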

How the data were processed

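RNA was sequenced from 4 libraries, 2 per group, and groups and replicate numbers come from the sample titles. The authors deposited whole-number counts for 208825 numbered parts of RefSeq gene units. TopHat and build mm9 are named, without versions, per the submitters' processing notes; the counting tool, annotation and strand setting were not stated in the sources used here. A read across a junction may be counted in several parts. Rows that name no gene (13.6% to 15.8% outside genes, 0.411% to 0.521% ambiguous) were left out. Parts were summed to 21822 units, and 98.1% of 27601 transcript identifiers matched a symbol (RefSeq GRCm38.p6, GENCODE M21). Exon order and lengths come from the matched GENCODE transcript, a later build than the counts. Promoter windows were cut to the 250 bases before the start.

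Genes were tested with edgeR 4.0.16 (R 4.3.3) using its quasi-likelihood test (robust fit, TMM scaling, default filter leaving 14283 genes) and Benjamini-Hochberg adjustment at 0.05. DESeq2 1.42.0 and limma 3.58.1 (voom) were alternatives. No fit had a replicate term unless a replicate block is named. SE is the log2 fold change divided by the root of F. Intervals use the fit's degrees of freedom and are unadjusted. CPM use TMM-scaled totals of part counts. With 10 or fewer control counts a ratio of summed counts is given, and 3 counts is the floor of a 0. Both cover counting error only and take each count as a separate read. In simulated counts for this comparison (14169 genes run), the test recovered 65% of 100 genes set to a 2-fold change and 98% of 100 set to a 4-fold change, with 16 false calls. The changed genes were drawn at random from all tested genes, and no difference shared by replicate number was simulated. Recovery was not measured for low genes such as Fli1 and Pecam1. No replicate pair was 1 library deposited again: chi-square over its degrees of freedom was 36.5 for the controls and 32.6 for Dox.

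The members and gene lists were chosen with earlier results of these data known. Genes named are the 10, then per list up to 4 called genes ranked by adjusted p, or the 3 of largest mean CPM where none was called, then the 5 most like Erg (predicted genes passed over), with Isl1 and Lhx3. Cdh5, Mmrn2, Etv4, Etv5, Pgf, Vegfa, Flt4, Des, Acta2 and Col9a1, and genes given by counts or CPM alone, were added after their values were seen.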

Additional observations from a re-analysis of the deposited data

How the results depend on the processing

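Erg was chosen for its difference, so its log2 values of 3.80 to 4.91 with 1 library left out and 3.15 with the largest part as its count are descriptions, and counts that include it are no support. Under a minimum mean of 5 CPM, which drops Erg, and with the largest part, 0 of the 10 genes and 0 ETS genes were called higher, and under the first also 0 cartilage genes.

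All genes called higher and lower numbered 175 and 8 in the main test, 403 and 116 in DESeq2, 295 and 46 with no filter, 104 and 4 where a mean of 5 CPM was asked, and 276 to 283 and 22 to 124 with 1 library left out; those lower numbered 16 with library totals and 14 with the largest part. ETS genes called higher, Erg included, were 3 in DESeq2 and with no filter, and 1 to 3 with 1 library left out. Further endothelial genes called higher were 1 in DESeq2 and with no filter, and mural genes called lower 0 to 1 with 1 library left out.

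A replicate block in the edgeR fit gave 1047 genes higher and 869 lower of the 14283 tested. Same-numbered libraries deviated together from their group means (correlation 0.521 across genes), but the labels give only a number. In this replicate block fit Kdr was called higher (0.74, adjusted p = 0.0407), making 2 with Erg, 1 was lower (Flt1, -0.61, adjusted p = 0.000152), and Flt4 was higher (0.70, adjusted p = 0.0192). Of the tested genes on the lists, 1 of 14 further endothelial, 1 of 8 mural and 3 of 6 cartilage genes were higher. So were 5 of 19 ETS genes (Erg included) and 5 of 11 ligand genes. In this fit 1 mural and 1 ligand gene were lower.

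Uncalled genes changed sign when 1 library was left out: Fli1 (-0.33 at its lowest, 1.90 at its highest), Pecam1 (-0.43 and -0.35, up to 1.01), Esam (-0.44 to 0.16, also 0.15), Egfl7 (-0.28 to 0.08, also 0.07), Cdh5 (-0.54 to 0.74), Notch3 (-0.22 to 0.48, also -0.21), Tagln (-1.02 to 0.26), Runx1 (-0.12 to 0.27), Csf1r (-0.66 to 0.58, also 0.32), Brwd1 (-0.07 to 0.10, also -0.01), Dyrk1a (-0.18 to 0.04) and Ets2 (-0.06 to 0.21); Brwd1 did so also with the largest part (-0.06). The causes were not tested. Depth limits Tie1, Cldn5 and Emcn, whose counts reached at most 11 in a library.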
